A study of Mus musculus with 9 samples.

Results

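Megakaryocytes from the bone marrow of mice 3 days after 5 Gy of ionizing radiation (IR) were compared with those of control mice (Ctrl) across all genes. The groups were taken from the treatment given in the sample labels, and 6 of the 9 arrays of the series enter the comparison, 3 of Ctrl and 3 labelled 3 days post IR (3 dpi). The other 3 arrays, at 1 day post IR (1 dpi), share the fit and serve to test whether a value still differed between both times. For some gene lists their own levels or medians are given as well. All mice were male. The labels give neither strain nor age, and the methods name wild-type C57BL/6 mice, total-body exposure to a 60Co γ-ray source and sham irradiation of the controls, without stating the age of the mice behind the arrays. The series describes independent experiments with different donors at each time, so the p-values measure the spread between donors as far as that description holds. The methods describe selection of mature megakaryocytes (mMKs) by CD41 and CD42d, surface glycoproteins of the lineage. They also describe an Affymetrix chip, whereas the deposited files are scanner output of Agilent 1-colour arrays, and all values here come from the latter.

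Megakaryocytes are the large polyploid marrow cells that shed platelets. They mature from stem and progenitor cells under thrombopoietin, load granules with adhesive and clotting proteins, and extend proplatelets through the wall of marrow sinusoids. They touch stromal cells, endothelium and macrophages in the marrow, take up plasma proteins, and secrete matrix proteins and growth factors. Whole-body irradiation kills dividing blood precursors and B cells and activates p53 in cells with damaged DNA, and dead cells are cleared by macrophages.

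One control array stood apart. Ctrl replicate 1 was the only array on its slide, and its median absolute difference from Ctrl replicates 2 and 3 was 0.25 and 0.26 on the log2 scale, against 0.07 between Ctrl replicates 2 and 3. The 3 arrays at 3 dpi differed from each other by 0.08 to 0.16. No pair of replicate arrays held identical values. Without Ctrl replicate 1, 2366 genes were called in place of 2587, with 1828 higher and 538 lower, and 2264 of the 2587 calls were among them.

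Levels are given as log2 intensity minus the 75th percentile of all spots on the same array, so that a level of 0 lies at that percentile. Genes with at least a 2-fold change and an adjusted p (Benjamini-Hochberg) under 0.05 in limma are counted as called. Of 29410 genes tested, 8.80% were called, 6.98% higher and 1.82% lower at 3 dpi. The size of the changes differed between both directions. Of the called genes, 780 rose and 93 fell by at least 4-fold, 234 rose and 29 fell by at least 8-fold, 58 rose and 5 fell by at least 16-fold, and 12 rose and 0 fell by at least 32-fold. The 5 were Lgr5, Fcmr, Gm19590, Klhl14 and 4930426D05Rik. Among genes well above background on all 6 arrays these numbers were 450 and 71, 137 and 19, 32 and 2 (Fcmr and Gm19590), and 6 and 0. The median log2 fold change was 1.74 among the genes called higher and -1.29 among those called lower. Most genes lay close to the control level, with quartiles of -0.15 and 0.43 and a median of 0.11 over all genes. In 375 of the genes called higher no Ctrl array was well above background, and in 16 of those called lower no 3 dpi array was, which leaves just a bound for the fold change. Well above background on all 6 arrays were 1325 of the genes called higher and 483 of those called lower. The split depended on the scaling, and so did the median over the genes, which was -0.012 after scaling to the array median and -0.033 in the log2 table that the authors deposited. Called were 1736 genes higher and 693 lower after quantile normalization, 1883 and 739 with arrays scaled to their medians, and 1680 and 860 in the deposited table. Fewer were called after normexp background correction, 1028 higher and 263 lower, and with treat, limma's test against a 2-fold change, 961 and 181. The plot of fold change against level shows both directions over the range of intensities. Below, a list of genes is described by how many members were called each way and by its median, to be read against 8.80% and 0.11. Counts at an unadjusted p have no such yardstick, as the share of all genes at that threshold was not counted. It is at least that of the 9400 genes with an adjusted p under 0.05 in limma whatever the size of change. Of these 4947 were higher and 4453 lower, and 61.2% of all genes lay above 0.

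**Figure D1:**
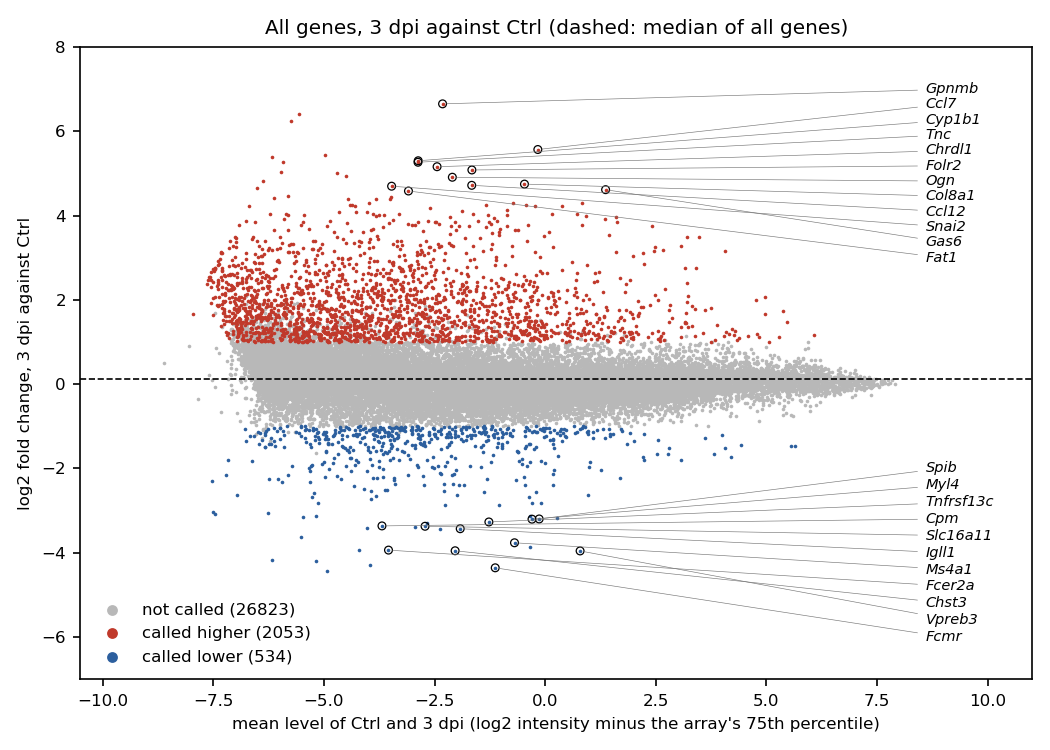
Log2 fold change of each of 29410 genes at 3 dpi against Ctrl (y axis) and the mean of both group means in log2 intensity minus the array's 75th percentile (x axis). Red points are the 2053 genes called higher and blue points the 534 called lower; the 12 largest rises and 11 of the 12 largest falls among genes well above background on all 6 arrays are circled and named. The dashed line is the median of all genes, 0.11, and the rises reach farther from it than the falls.

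Of the genes well above background on all 6 arrays, Gpnmb had the largest rise at 3 dpi and Ccl7 the next. Gpnmb, a glycoprotein of lysosome-rich cells, was at -5.69, -5.95 and -5.28 on the Ctrl arrays and 1.11, 0.97 and 0.95 on the 3 dpi arrays. Ccl7, a chemokine for monocytes, was at -2.82, -3.0 and -3.03 on the Ctrl arrays and 2.55, 2.64 and 2.66 on the 3 dpi arrays. The fold changes were 100.5 for Gpnmb and 47.4 for Ccl7. For both genes every 3 dpi array lay above every Ctrl array, which the rule for naming the largest changes required. The groups were likewise separate in all 2587 called genes, so this separation, given here and below for called genes, is no further support. With 3 arrays against 3, 10% of genes would be separate by chance. With normexp the log2 fold change of Gpnmb was 4.97 in place of 6.65.

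Folr2, a folate receptor of tissue macrophages, was at -4.12, -4.11 and -4.35 on the Ctrl arrays and 0.88, 0.97 and 0.81 on the 3 dpi arrays, a log2 fold change of 5.08 (SE 0.09) with an adjusted p of 1.1e-07 from limma. Its probe lies on chromosome 7, 108988771 to 108988830 of the mouse build mm9. Every 3 dpi array of Folr2 was far above the Ctrl arrays. Ccl12, another monocyte chemokine, was at -4.08, -3.99 and -3.98 on the Ctrl arrays and 0.76, 0.66 and 0.68 on the 3 dpi arrays, which gives 4.72 (SE 0.06). Ogn, a small leucine-rich proteoglycan of connective tissue, was at -4.39, -4.64 and -4.62 on the Ctrl arrays and 0.21, 0.40 and 0.47 on the 3 dpi arrays, or 4.91 (SE 0.11). All 3 genes lay below the 75th percentile of every Ctrl array and above that of every 3 dpi array, and the plot of the largest changes shows the arrays of each gene.

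Snai2, a transcription factor of mesenchymal cells, reached 4.70 (SE 0.11) and stayed below that percentile on all arrays, at -1.10, -1.17 and -1.10 at 3 dpi. Fat1, an atypical cadherin, reached 4.58 (SE 0.14) on its brightest probe, whereas its probes ranged from -0.04 to 4.58, so that its rise was not seen on each probe.

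Genes of the B lineage were among the 12 largest falls. Ms4a1, which encodes CD20, was at 1.16, 1.21 and 1.20 on the Ctrl arrays and -2.50, -2.59 and -2.64 on the 3 dpi arrays, a log2 fold change of -3.77 (SE 0.07). The groups did not overlap, and the second probe of Ms4a1 showed no fall, at 0.00.

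Igll1, a chain of the surrogate light chain that precursor B cells carry, fell by 3.43 (SE 0.09). Fcer2a, the low-affinity IgE receptor, fell by 3.94 (SE 0.24) on its brightest probe, with probes from -3.94 to -0.13. Tnfrsf13c, the receptor for the B-cell survival factor BAFF, fell by 3.27 (SE 0.07), with probes from -3.27 to -0.56. Spib, a transcription factor of B cells and plasmacytoid dendritic cells, fell by 3.20 (SE 0.10).

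Myl4, Slc16a11 and Cpm, on none of the gene lists described below, were also among the 12 largest falls. Myl4, a myosin light chain, was at 1.46, 1.22 and 1.23 on the Ctrl arrays and -1.82, -1.89 and -1.99 on the 3 dpi arrays and fell by 3.21 (SE 0.09), with probes from -3.21 to -1.68. Slc16a11, a monocarboxylate transporter family member, was at -0.90, -0.98 and -1.20 on the Ctrl arrays and -4.16, -4.40 and -4.64 on the 3 dpi arrays. Cpm, a membrane carboxypeptidase, fell by 3.37 (SE 0.25), with its 2 probes at -4.35 to -3.37. In each of these genes every 3 dpi array was below every Ctrl array.

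**Figure D2:**
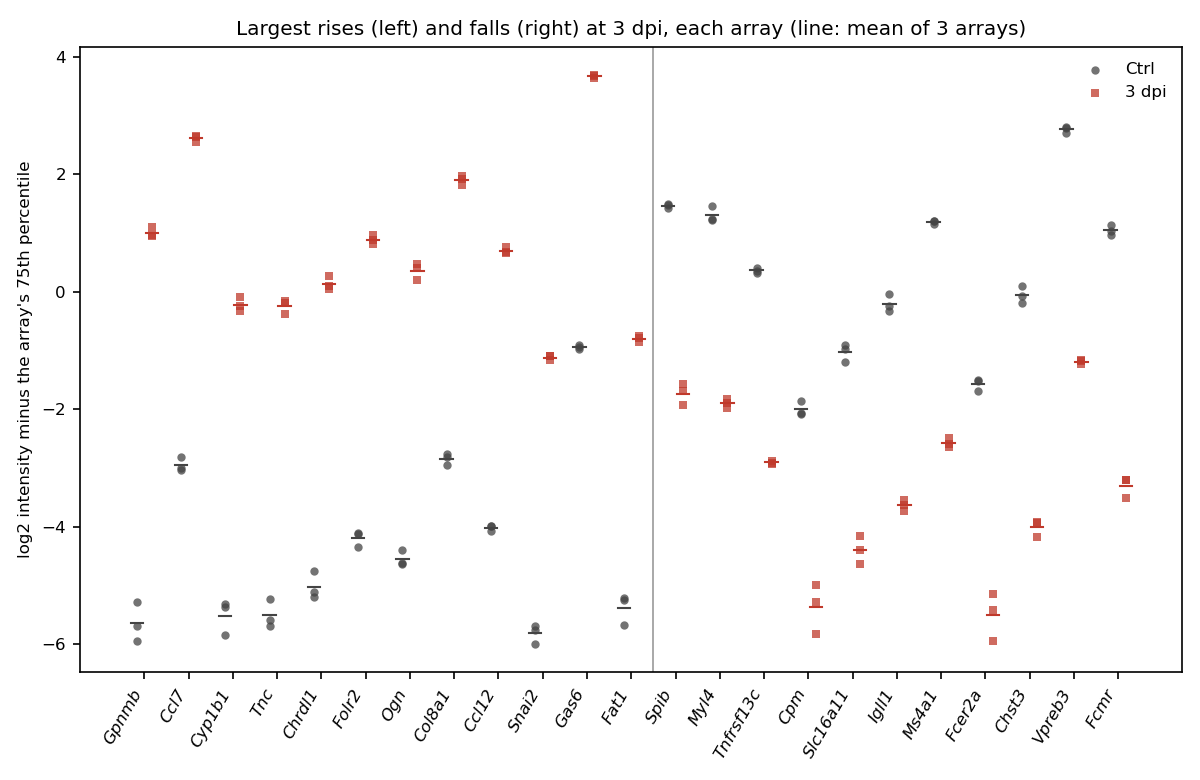
Level on each array (log2 intensity minus the array's 75th percentile) of the 12 genes with the largest rise (left) and 11 of the 12 with the largest fall (right), for the 3 Ctrl arrays (grey circles) and the 3 arrays at 3 dpi (red squares), with the mean of 3 arrays as a line. The groups do not overlap for any gene, which the rule for naming them required.

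The label of the cells was checked against megakaryocyte markers. Such markers cannot show that other cells were absent, and genes of other marrow cells, described below, were bright on the same arrays. The neutrophil granule list summed to 2303, 2389 and 2361 on the Ctrl arrays and 2613, 2387 and 2510 on the 3 dpi arrays. Pf4, the chemokine of platelet α-granules, was at 6.05, 6.04 and 6.04 on the Ctrl arrays and 6.07, 6.05 and 6.05 on the 3 dpi arrays. Itga2b, which encodes CD41, was at 0.40, 0.35 and 0.31 on the Ctrl arrays and 0.22, 0.40 and 0.35 on the 3 dpi arrays. The groups overlapped for both, and all 30 genes of the megakaryocyte identity list were detected well above background on every array of 1 group or of both. Of these 30, 0 were called higher and 4 lower, with a median of -0.07.

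The 4 that fell are transcriptional regulators. Meis1, a homeodomain factor of stem cells and megakaryocytes, was at 2.81, 2.86 and 2.77 on the Ctrl arrays and 0.65, 0.58 and 0.49 on the 3 dpi arrays, a log2 fold change of -2.24 (SE 0.06). Zfpm1, the GATA1 cofactor FOG1, was at 3.44, 3.25 and 3.33 on the Ctrl arrays and 1.81, 1.64 and 1.61 on the 3 dpi arrays, or -1.65 (SE 0.08). Gfi1b, a repressor needed in the megakaryocytic and erythroid lineages, fell by 1.19 (SE 0.08), and Tal1, a basic helix-loop-helix factor of both, fell by 1.08 (SE 0.07). No 3 dpi array of these genes reached a Ctrl array. Of the list's platelet glycoprotein genes, Gp9 was at 0.93 (SE 0.07) and Gp1bb at 0.79 (SE 0.11), each with an adjusted p under 0.05 and a change of less than 2-fold. Gp6 is described below. Gp1ba was at 0.06 (SE 0.10) and Gp5 at -0.28 (SE 0.14), with an adjusted p above 0.05.

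The summed scaled intensity of the 30 markers was 280, 259 and 255 on the Ctrl arrays and 263, 254 and 251 on the 3 dpi arrays, with Pf4 the brightest.

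Genes of platelet function were called in both directions. Of 46 platelet agonist receptor and signalling genes, 3 were called higher and 2 lower, with a median of -0.02, or 0.01 without Ctrl replicate 1. P2ry12, the ADP receptor, was at -1.87, -1.68 and -1.70 on the Ctrl arrays and -0.21, 0.18 and 0.19 on the 3 dpi arrays, and the 3 dpi arrays were all higher. F2r, a thrombin receptor, was at 2.77, 2.48 and 2.45 on the Ctrl arrays and 1.15, 1.22 and 1.05 on the 3 dpi arrays, all lower at 3 dpi. Jam3, a junctional adhesion molecule of platelets, rose by 1.26 (SE 0.07). Cd36, a thrombospondin and lipid receptor, rose by 2.78 (SE 0.14). Tbxa2r, the thromboxane receptor, fell by 1.01 (SE 0.09), and its call was lost without Ctrl replicate 1 and under each other scaling but that to the array median. Gp6, the collagen receptor, was at -0.80, -0.92 and -0.90 on the Ctrl arrays and 0.12, 0.09 and 0.03 on the 3 dpi arrays, which at 0.95 (SE 0.08) fell short of a 2-fold change.

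Of 42 granule cargo and secretion genes, 6 were called higher and 3 lower. Slc35d3, a transporter needed for platelet dense granules, was at 0.60, 0.38 and 0.47 on the Ctrl arrays and -2.0, -1.59 and -1.83 on the 3 dpi arrays, or -2.29 (SE 0.11). All its 3 dpi arrays were low. Nbea, a vesicle trafficking protein whose probes ranged from 0.27 to 1.71, reached 1.71 (SE 0.14) on the brightest and was not called as their mean. The other genes called lower were Angpt1, at -1.36, and Rab38, a small GTPase of lysosome-related organelles, at -1.16. The adhesive protein gene Vwf was at 2.92, 2.69 and 2.66 on the Ctrl arrays and 2.75, 2.69 and 2.69 on the 3 dpi arrays, and its groups overlapped. In the deposited table Vwf was called lower, at -1.36, and so was Mmrn1.

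Of 41 proplatelet cytoskeleton genes, 2 were called higher, and in the deposited table Myl6 and Sptbn1 were too. Myl9, the regulatory light chain of non-muscle myosin, was at 2.75, 2.70 and 2.72 on the Ctrl arrays and 4.53, 4.49 and 4.45 on the 3 dpi arrays. All 3 dpi arrays of Myl9 were higher. Tpm1, a tropomyosin, rose by 1.09 (SE 0.07), with probes from -0.66 to 1.09. Its call was lost as the mean of its probes and, at 0.96, with arrays scaled to their medians. Tubb1, the β-tubulin of platelets, was at -2.24, -2.17 and -2.24 on the Ctrl arrays and -1.47, -1.43 and -1.35 on the 3 dpi arrays, at 0.80 (SE 0.08) less than 2-fold.

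Matrix genes were called in 1 direction, with 0 members of 5 lists called lower by limma, and of these members just the protease gene Adamts10 was called lower in the deposited table. Of 39 collagen chains 18 were called higher (median 0.91), as were 14 of 27 genes for collagen processing and crosslinking (1.18), 26 of 43 matricellular and elastic fibre genes (1.48), 15 of 24 genes of laminins and basement membrane (1.25) and 14 of 36 metalloproteinases and their inhibitors (0.56). At an unadjusted p under 0.05, P3h3, Ltbp3, Agrn and Adamts10 were the members below Ctrl. The medians kept their sign over all scalings and ranged from 0.29 to 0.91, 0.54 to 1.21, 0.74 to 1.83, 0.74 to 1.66 and 0.35 to 0.70, in the same order. Without Ctrl replicate 1 the last of these was 0.30.

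Col3a1, the chain of type III collagen, was at -3.45, -3.73 and -3.63 on the Ctrl arrays and 0.59, -0.06 and -0.10 on the 3 dpi arrays. Col1a1, of type I collagen, was at 0.94, 0.81 and 0.92 on the Ctrl arrays and 4.07, 3.98 and 4.07 on the 3 dpi arrays. The 3 dpi arrays were all higher for both. The log2 fold changes over all probes ranged from 1.54 to 3.74 for Col3a1 and from 0.47 to 3.43 for Col1a1. Col4a1, of basement membranes, rose by 2.33 (SE 0.11).

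Enzymes that fold, trim and crosslink collagen were among them. Loxl1, a lysyl oxidase, was at -5.82, -5.47 and -5.65 on the Ctrl arrays and -1.50, -1.70 and -1.66 on the 3 dpi arrays. Fap, a fibroblast protease, was at -3.19, -3.41 and -3.30 on the Ctrl arrays and 0.58, 0.73 and 0.82 on the 3 dpi arrays. Adamts2, which trims procollagen, was at -3.02, -2.81 and -2.73 on the Ctrl arrays and 1.22, 1.05 and 1.18 on the 3 dpi arrays. The groups were far apart in each, at 4.02 (SE 0.13) for Loxl1, 4.01 (SE 0.12) for Fap and 4.0 (SE 0.11) for Adamts2. Loxl1 was at 2.50 with normexp, and the probes of Adamts2 ranged from 1.07 to 4.0. Lox, another lysyl oxidase, reached 3.63 (SE 0.18). Serpinh1, the collagen chaperone HSP47, rose by 3.62 (SE 0.18) with probes from 1.28 to 3.62.

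Among other matrix proteins, the proteoglycan Lum was at -4.31, -4.53 and -4.32 on the Ctrl arrays and -0.66, -0.50 and -0.49 on the 3 dpi arrays. The fibulin-like Efemp1 was at -5.82, -6.58 and -6.75 on the Ctrl arrays and -2.56, -2.67 and -2.44 on the 3 dpi arrays. Both were higher on every 3 dpi array, by 3.84 (SE 0.16) for Lum and 3.83 (SE 0.25) for Efemp1. Fibronectin, Fn1, which megakaryocytes also assemble, rose by 1.35 (SE 0.09) from an already high level, and its 4 probes lay between 1.20 and 1.54. In the basement membrane, Lama4, a laminin chain of vessels, rose by 2.86 (SE 0.12), with probes from 0.55 to 2.86. Nid2, a nidogen, rose by 2.46 (SE 0.08). Pxdn, a peroxidase that crosslinks collagen IV, reached 3.29 (SE 0.19) with probes from -0.09 to 3.29. Mmp13, a collagenase, was at -3.54, -3.44 and -3.40 on the Ctrl arrays and 0.52, 0.61 and 1.24 on the 3 dpi arrays, or 4.25 (SE 0.21). Its 3 dpi arrays were all high. Of the aggrecanases, Adamts9 reached 3.74 (SE 0.12), with probes from 2.18 to 3.74, and Adamts1 3.26 (SE 0.13). The gelatinase gene Mmp2 rose by 2.68 (SE 0.09), and Timp1, which inhibits its family, by 1.61 (SE 0.17).

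Promoters of genes that moved together are shown with 2 short motifs, chosen with the results known. AP-1 factors bind TGAGTCA, and GATA factors bind AGATAA; both strands of the RefSeq promoters on GRCm38.p6 were searched, 250 bases before to 50 after each start. The first motif was found in 111 of 1182 genes called higher that have a promoter there (9.39%), in 5.71% of those called lower, in 5.27% of the genes tested, in 5.95% of all 27025 genes with a promoter and, counted by promoter, in 5.2% of all 32851. The second was found in 14.6% of the genes called lower, 10.2% of those called higher, 10.2% of the genes tested, 12.7% of all genes with a promoter and 11.2% of all promoters. A match is a run of letters and was not tested as a binding site. Only genes with a match before the start are shown, and Stfa3, also looked up for the first motif, gave none. The stretches below lie before the start, are written 5′ to 3′ along the gene and carry the match in capitals (the AP-1 motif, here on the reverse strand as TGACTCA, in the matrix genes Mmp13 and Col6a1, and the GATA motif in the erythroid genes Rhd and Kel, which are described further on). The match begins 35, 90, 43 and 56 bases before the start, in this order, and no match of one motif overlaps one of the other.
Mmp13, chr9:7272394-7272513 (+ strand): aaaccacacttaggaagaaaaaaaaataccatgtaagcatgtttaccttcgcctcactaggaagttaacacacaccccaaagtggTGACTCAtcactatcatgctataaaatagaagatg
Col6a1, chr10:76726088-76726207 (- strand): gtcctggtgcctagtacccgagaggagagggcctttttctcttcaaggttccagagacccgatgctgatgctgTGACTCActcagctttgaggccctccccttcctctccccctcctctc
Rhd, chr4:134864416-134864535 (+ strand): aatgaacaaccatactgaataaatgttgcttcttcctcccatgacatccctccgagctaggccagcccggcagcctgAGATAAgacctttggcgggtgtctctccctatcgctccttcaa
Kel, chr6:41704336-41704455 (- strand): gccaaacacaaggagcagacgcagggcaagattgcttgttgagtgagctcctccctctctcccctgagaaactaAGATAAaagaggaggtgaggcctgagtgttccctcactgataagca

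Integrins are receptors through which platelets and megakaryocytes hold matrix. Of 26 integrin genes, 2 were called higher and 0 lower, with a median of 0.16. Itgb5 rose by 1.12 (SE 0.10). Itga11, a collagen receptor of fibroblasts that was well above background on 2 of 3 Ctrl arrays, rose by 4.40 (SE 0.37). With just the probes well above background on all 6 arrays another probe stood for Itga11, and it was at 0.26. After quantile normalization and with array medians Itga1 was called higher and Itgb6 lower. With array medians Itga7 was also called higher and Itgb5 was no longer called, and in the deposited table Itgb1 and Itgb6 were called lower.

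Of 50 genes of TGF-β and BMP signalling, 14 were called higher and 0 lower (median 0.32, 0.20 to 0.32 over the scalings, or 0.20 without Ctrl replicate 1). Bmp5, a ligand, was at -5.76, -5.98 and -5.72 on the Ctrl arrays and -1.96, -1.80 and -1.73 on the 3 dpi arrays. Grem1, which binds and blocks BMPs, was at -3.60, -4.02 and -3.90 on the Ctrl arrays and -0.11, -0.26 and -0.15 on the 3 dpi arrays. Both were higher on all 3 dpi arrays, and the probes of Bmp5 ranged from 1.93 to 3.99. Fstl1, a secreted follistatin-like protein, reached 4.31 (SE 0.10) on its brightest probe, with probes from 0.33 to 4.31. Tgfb1, abundant in platelet granules, was at 1.76, 1.65 and 1.60 on the Ctrl arrays and 1.77, 1.67 and 1.49 on the 3 dpi arrays, and its groups overlapped.

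Of 36 growth factor genes and their binding proteins, 15 were called higher and 1 lower (median 0.70), the lower one being Angpt1. Igf1 was at 0.02, -0.18 and -0.13 on the Ctrl arrays and 2.59, 2.55 and 2.53 on the 3 dpi arrays, a log2 fold change of 2.65 (SE 0.07), although its 3 probes ranged from 0.24 to 2.65. Igfbp7, which binds insulin-like growth factors, rose by 2.84 (SE 0.09). Areg, a ligand of the EGF receptor, rose by 2.96 (SE 0.22). The matricellular protein gene Ccn1 reached 2.71 (SE 0.16).

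Among genes of macrophages and of the clearance of dead cells, 0 were called lower. Of 30 macrophage markers, 20 were called higher and 0 lower, with a median of 1.52. Trem2, a lipid-sensing receptor, was at -0.24, -0.38 and -0.32 on the Ctrl arrays and 3.68, 3.53 and 3.42 on the 3 dpi arrays. Marco, a scavenger receptor, was at -3.31, -2.82 and -2.95 on the Ctrl arrays and 0.99, 0.72 and 0.81 on the 3 dpi arrays. The 3 dpi arrays were all high, at 3.86 (SE 0.09) for Trem2 and 3.87 (SE 0.13) for Marco. Msr1, another scavenger receptor, reached 3.30 (SE 0.09), and Maf, a transcription factor of resident macrophages, 2.91 (SE 0.08). Csf1r, the growth factor receptor of the lineage, rose by 1.05 (SE 0.08), and its call was lost under quantile normalization, array medians, in the deposited table and as the mean of its probes. Adgre1, which encodes F4/80, was at 0.50 (SE 0.07), and Vcam1 at 0.75 (SE 0.07), below a 2-fold change. The summed intensity of the list was 268, 296 and 285 on the Ctrl arrays and 464, 445 and 463 on the 3 dpi arrays. Its brightest gene, the lysozyme gene Lyz2, which neutrophils share, was at 0.11.

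Of 48 genes of dead-cell clearance and the lysosome, 27 were called higher and 0 lower (median 1.12), and 18 of the list are on another list too. Stab1, a receptor for phosphatidylserine on sinusoidal endothelium and macrophages, was at -1.20, -1.36 and -1.32 on the Ctrl arrays and 2.90, 2.64 and 2.67 on the 3 dpi arrays, or 4.03 (SE 0.08). Stab2, its relative, was at -0.19, -0.40 and -0.36 on the Ctrl arrays and 1.93, 1.61 and 1.70 on the 3 dpi arrays. Every 3 dpi array was above every Ctrl array. The lysosomal membrane protein gene Lamp1 was at 0.53 (SE 0.09).

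Of 32 complement genes, 16 were called higher and 1 lower (median 1.12, from 0.51 to 1.12 over the scalings). Cfb, a factor of the alternative pathway, was at -2.81, -3.01 and -2.99 on the Ctrl arrays and 1.34, 1.08 and 1.17 on the 3 dpi arrays. The groups were apart, by 4.14 (SE 0.09). Of the C1q chains, made by macrophages, C1qa rose by 2.37 (SE 0.11) and C1qb by 2.51 (SE 0.09). Serping1, the C1 inhibitor, rose by 3.01 (SE 0.15). Cr2, the complement receptor of B cells, fell by 1.11 (SE 0.13), with probes from -3.24 to -1.04. C3 was at 6.23, 6.09 and 6.06 on the Ctrl arrays and 6.17, 6.13 and 6.10 on the 3 dpi arrays, with overlapping groups.

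Of 33 chemokines, 16 were called higher and 0 lower (median 0.97, from 0.63 to 1.12 over the scalings). Ccl8, a monocyte chemokine, was at -2.45, -2.68 and -2.57 on the Ctrl arrays and 1.68, 1.66 and 1.72 on the 3 dpi arrays. Ccl2 was at 0.92, 0.85 and 0.80 on the Ctrl arrays and 4.05, 4.17 and 4.14 on the 3 dpi arrays. Cxcl12, which holds progenitors and megakaryocytes in the marrow, was at 1.95, 1.62 and 1.61 on the Ctrl arrays and 5.24, 5.17 and 5.28 on the 3 dpi arrays. All were higher at 3 dpi, by 4.25 (SE 0.11) for Ccl8, 3.26 (SE 0.06) for Ccl2 and 3.50 (SE 0.10) for Cxcl12. Cxcl14 reached 3.60 (SE 0.14) on its brightest probe, with the other at -0.17.

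Markers of further marrow cells were read beside these changes, since the cells were enriched from whole marrow. In these bulk samples, fewer cells of a type and less RNA per cell cannot be told apart, nor can more cells and more RNA per cell, and the part of other cells in the changes above was not tested. Of 25 markers of niche stromal cells, 15 were called higher and 1 lower (Angpt1), with a median of 2.51, or 1.78 with genes dim in Ctrl set to their bound. Over the scalings the median ranged from 1.42 to 3.36. Ebf3, a transcription factor of these cells, was at -4.02, -3.94 and -3.85 on the Ctrl arrays and 0.16, 0.15 and 0.18 on the 3 dpi arrays. Esm1, a secreted proteoglycan, was at -1.83, -1.85 and -1.90 on the Ctrl arrays and 2.18, 2.15 and 2.24 on the 3 dpi arrays. Islr, of mesenchymal cells, was at -3.70, -3.57 and -3.65 on the Ctrl arrays and 0.55, 0.33 and 0.31 on the 3 dpi arrays. Each was higher on all 3 dpi arrays, by 4.10 (SE 0.08) for Ebf3, 4.05 (SE 0.07) for Esm1 and 4.04 (SE 0.12) for Islr. The defining receptor gene Lepr was at 0.42 (SE 0.32) on its brightest probe, with probes from 0.42 to 4.07. Lepr was called higher in the deposited table, at 3.92, and as the mean of its probes, at 2.30. Pdgfrb, a receptor of pericytes, was at -0.39 (SE 0.10). The summed intensity of the list was 106, 101 and 101 on the Ctrl arrays and 188, 188 and 199 on the 3 dpi arrays, with Hp, which neutrophils also express, the brightest.

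Of 24 markers of the osteoblast lineage, 15 were called higher and 0 lower (median 2.41, from 1.0 to 2.41 over the scalings). Bglap, which encodes osteocalcin, was at -2.96, -2.77 and -2.50 on the Ctrl arrays and 1.04, 0.92 and 1.06 on the 3 dpi arrays. Bglap2, its neighbour, was at -0.72, -0.41 and -0.05 on the Ctrl arrays and 3.63, 3.48 and 3.63 on the 3 dpi arrays. Their 3 dpi arrays lay above all Ctrl arrays, while Ctrl replicate 1 was the lowest Ctrl array for both, and the probes of Bglap ranged from 1.11 to 3.75. Sp7, the osteoblast transcription factor, was at -2.30, -0.93 and -1.07 on the Ctrl arrays and -0.67, -0.87 and -0.82 on the 3 dpi arrays, which at 0.64 (SE 0.32) did not pass the test; as the mean of its probes Sp7 was called higher, at 1.11. Sost, of osteocytes, was on 0 arrays well above background. The list summed to 7.47, 8.05 and 8.42 on the Ctrl arrays and 50.5, 48.7 and 52.0 on the 3 dpi arrays, with Col1a1 the brightest.

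Of 24 adipocyte markers, 9 were called higher and 0 lower (median 0.65, from 0.31 to 0.86 over the scalings). Adipoq, which niche stromal cells also express, was at -2.33, -2.39 and -2.32 on the Ctrl arrays and 1.95, 1.72 and 1.99 on the 3 dpi arrays. Fabp4, a fatty acid carrier, was at 1.17, 1.0 and 1.1 on the Ctrl arrays and 4.31, 4.16 and 4.31 on the 3 dpi arrays. Both were higher on every 3 dpi array, by 4.23 (SE 0.11) for Adipoq and 3.17 (SE 0.07) for Fabp4, and Car3, a carbonic anhydrase of fat cells, rose by 2.03 (SE 0.09). Plin1, the coat protein of fat droplets, was at -6.03, -4.43 and -4.28 on the Ctrl arrays and -4.51, -4.72 and -4.49 on the 3 dpi arrays, where Ctrl replicate 1 lay far below the others and the groups overlapped. In the deposited table Plin1 was called higher, at 1.36. Summed over the list, intensity was 76.6, 69.1 and 67.9 on the Ctrl arrays and 109, 104 and 109 on the 3 dpi arrays, with Agpat2 the brightest.

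Of 30 endothelial markers, 16 were called higher and 1 lower (median 1.18, from 0.64 to 1.18 over the scalings). Cdh5, the endothelial cadherin, was at -2.18, -2.35 and -2.40 on the Ctrl arrays and 0.28, 0.02 and -0.01 on the 3 dpi arrays. Mmrn2, a vessel matrix protein, was at -1.13, -1.34 and -1.37 on the Ctrl arrays and 1.50, 1.28 and 1.26 on the 3 dpi arrays. All 3 dpi arrays were higher, by 2.40 (SE 0.11) for Cdh5 and 2.63 (SE 0.10) for Mmrn2, and the transcription factor gene Sox18 reached 2.29 (SE 0.15). Pecam1, which platelets carry too, was at -1.17, -1.22 and -1.17 on the Ctrl arrays and -1.13, -1.26 and -1.09 on the 3 dpi arrays, with overlapping groups, and Cd34 fell by 1.52 (SE 0.07). The sum over these genes was 197, 182 and 179 on the Ctrl arrays and 194, 177 and 181 on the 3 dpi arrays, with Ly6c1, which blood cells also express, the brightest.

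**Figure D3:**
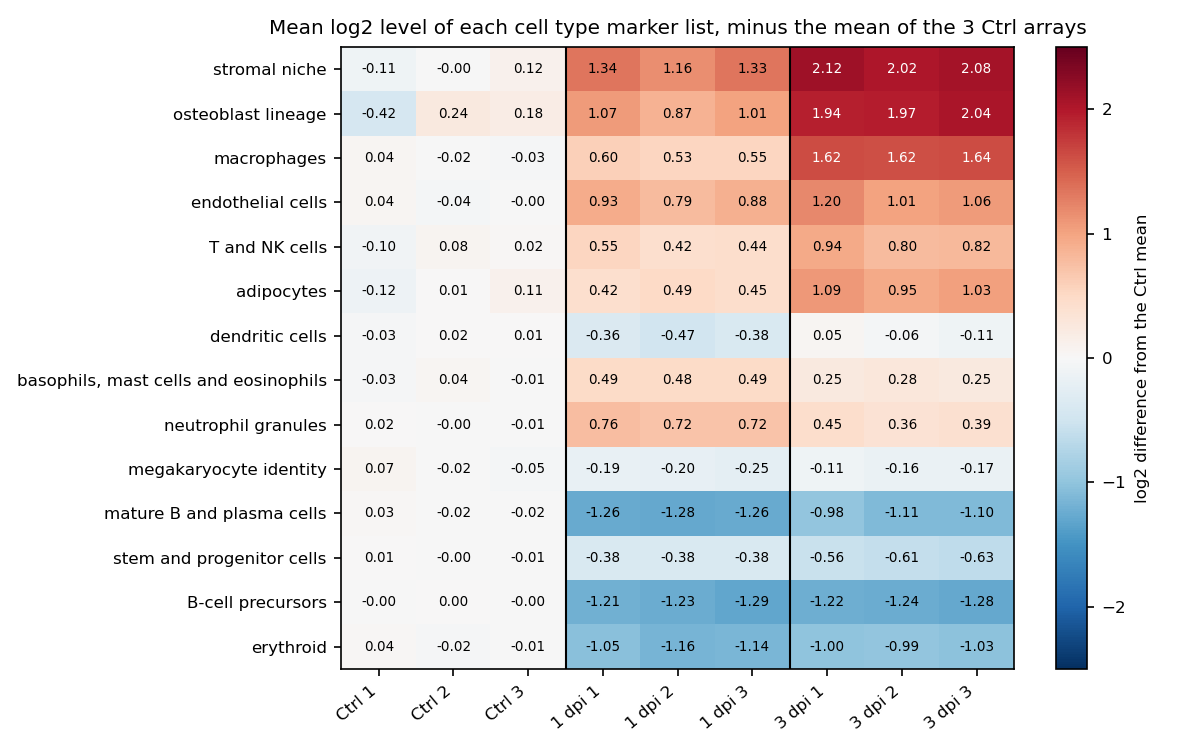
Mean log2 level of each cell type marker list on each of the 9 arrays, minus the mean of the 3 Ctrl arrays (colour and printed value, in log2 units), with lists ordered by their median log2 fold change at 3 dpi. At 3 dpi the stromal, osteoblast and macrophage lists lie highest and the erythroid and B-cell lists lowest, and Ctrl replicate 1 lies lowest among the Ctrl arrays in the osteoblast list, at -0.42.

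Lymphoid markers moved in both directions. Of 30 markers of B-cell precursors, 0 were called higher and 13 lower (median -0.60, from -1.26 to -0.55 over the scalings). Vpreb1, of the surrogate light chain, was at 1.83, 1.84 and 1.85 on the Ctrl arrays and -1.32, -1.39 and -1.28 on the 3 dpi arrays. Dntt, the polymerase that adds bases at recombining joints, was at 1.28, 0.99 and 0.98 on the Ctrl arrays and -1.30, -1.45 and -1.72 on the 3 dpi arrays. Both were low on all 3 dpi arrays. Bach2, a transcription factor, fell by 2.88 (SE 0.10). Rag1, the recombinase, was well above background on all Ctrl arrays and on 0 arrays at 3 dpi, so that it was at least 1.85-fold lower, a bound that does not hold with normexp. The summed intensity of these markers was 237, 239 and 238 on the Ctrl arrays and 186, 179 and 175 on the 3 dpi arrays, with Cd24a, which many blood cells share, the brightest.

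Of 35 markers of mature B and plasma cells, 1 was called higher and 15 lower (median -0.52), the one higher being Prdm1, a regulator of plasma cells, at 1.20 (SE 0.09). With normexp 0 genes of the list were called higher. Jchain, of plasma cells, was at 4.01, 4.06 and 4.04 on the Ctrl arrays and 4.44, 4.31 and 4.35 on the 3 dpi arrays, or 0.32 (SE 0.07), less than 2-fold higher. Together these markers summed to 118, 110 and 109 on the Ctrl arrays and 106, 100 and 99.8 on the 3 dpi arrays, with Xbp1 the brightest.

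Of 35 markers of T and natural killer (NK) cells, 18 were called higher and 2 lower (median 1.01, from 0.64 to 1.01 over the scalings), and with normexp and quantile normalization 9 were called higher. Il2rb, the shared chain of the interleukin-2 and interleukin-15 receptors, was at -1.64, -1.68 and -1.69 on the Ctrl arrays and 0.94, 0.80 and 0.64 on the 3 dpi arrays. Gzma, a granule protease, was at -0.74, -0.52 and -0.58 on the Ctrl arrays and 1.70, 1.65 and 1.49 on the 3 dpi arrays. Their 3 dpi arrays were all high. Xcl1, a chemokine of NK cells, rose by 2.20 (SE 0.07) and the kinase gene Txk by 2.26 (SE 0.07). Of the genes called lower, Ccr7 fell by 1.85 (SE 0.07), and Lef1, also a B-precursor marker, fell by 1.95 (SE 0.17). Cd3e, of the T-cell receptor complex, was at 0.41 (SE 0.19) and did not pass. The list summed to 45.0, 47.1 and 45.0 on the Ctrl arrays and 63.6, 58.5 and 56.8 on the 3 dpi arrays, with Nkg7 the brightest, at 0.11 (SE 0.07).

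Other myeloid markers were called in smaller numbers than those of macrophages. Of 34 genes of neutrophil granules, 4 were called higher and 0 lower, and all 4 are members of the stefin A family of cysteine protease inhibitors. Stfa1 was at 0.55, 0.58 and 0.51 on the Ctrl arrays and 4.38, 4.25 and 4.23 on the 3 dpi arrays. Stfa3 was at -0.27, -0.37 and -0.33 on the Ctrl arrays and 3.23, 3.23 and 3.21 on the 3 dpi arrays. Cstdc5 was at 1.31, 1.46 and 1.51 on the Ctrl arrays and 4.76, 4.66 and 4.66 on the 3 dpi arrays. The 3 dpi arrays of each were close to one another and all higher, by 3.74 (SE 0.06) for Stfa1, 3.54 (SE 0.05) for Stfa3 and 3.27 (SE 0.07) for Cstdc5, and Stfa2 rose by 2.08 (SE 0.05). Members of this family are close in sequence, so that their probes may read each other's transcripts. Of the granule enzyme genes, Mpo was at 0.00 (SE 0.07) and Elane at -0.06 (SE 0.07). S100a8, an abundant calcium-binding protein, was at 0.17 (SE 0.10). Summed over the list, intensity was 2303, 2389 and 2361 on the Ctrl arrays and 2613, 2387 and 2510 on the 3 dpi arrays, with Mpo the brightest.

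Of 25 markers of basophils, mast cells and eosinophils, 4 were called higher and 1 lower. Tpsb2, a mast cell tryptase, was at -0.27, 0.16 and 0.03 on the Ctrl arrays and 2.17, 1.93 and 1.86 on the 3 dpi arrays. The basophil protease gene Prss34 was at 5.77, 5.40 and 5.28 on the Ctrl arrays and 6.77, 6.61 and 6.57 on the 3 dpi arrays. Both were higher on all 3 dpi arrays. Hpgds, a prostaglandin synthase, rose by 1.79 (SE 0.11). Mcpt4, a mast cell protease well above background on 2 of 3 Ctrl arrays, was called at 1.18 (SE 0.34), a call lost after quantile normalization, with normexp, with treat, in the deposited table and without Ctrl replicate 1. Kit, the receptor of mast cells and progenitors, fell by 1.32 (SE 0.11). Tpsab1 was on 0 arrays well above background. The sum over these genes was 1009, 1043 and 1005 on the Ctrl arrays and 1168, 1081 and 1117 on the 3 dpi arrays, with Prg2 the brightest.

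Of 24 dendritic cell markers, 3 were called higher and 5 lower. Clec10a, a lectin of conventional dendritic cells and macrophages, was at 1.20, 1.07 and 1.04 on the Ctrl arrays and 3.19, 3.09 and 2.97 on the 3 dpi arrays, all higher at 3 dpi. Klrd1, a lectin shared with NK cells, rose by 1.65 (SE 0.06). Fscn1, an actin bundler, rose by 1.68 (SE 0.16). The genes called lower were Flt3, a progenitor and dendritic receptor (-2.14, probes from -2.14 to -0.08), the transcription factor gene Irf4 (-1.94), Ccr7, Klk1 (-1.47) and Ly6d (-1.28). Siglech, of plasmacytoid dendritic cells, was at 3.69, 4.83 and 4.86 on the Ctrl arrays and 4.71, 4.53 and 4.50 on the 3 dpi arrays, where Ctrl replicate 1 was the low array, and Xcr1 and Ccl22 were on 0 arrays well above background. The list's summed intensity was 62.6, 75.7 and 76.6 on the Ctrl arrays and 88.9, 81.5 and 78.7 on the 3 dpi arrays, with Siglech the brightest.

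Many erythroid genes fell. Of 60 tested, 1 was called higher and 26 lower, with a median of -0.67, from -1.62 to -0.58 over the scalings. Ahsp, the chaperone of α-globin, was at 2.20, 2.33 and 2.30 on the Ctrl arrays and -0.46, -0.28 and -0.30 on the 3 dpi arrays. Rhd, the Rhesus antigen, was at 1.37, 1.26 and 1.31 on the Ctrl arrays and -1.57, -1.42 and -1.52 on the 3 dpi arrays. Kel, the Kell antigen, was at -0.63, -0.70 and -0.66 on the Ctrl arrays and -3.36, -3.27 and -3.29 on the 3 dpi arrays. For all 3 genes the 3 dpi arrays lay below every Ctrl array, with log2 fold changes of -2.63 (SE 0.18) for Ahsp, -2.82 (SE 0.17) for Rhd and -2.64 (SE 0.07) for Kel. Car1, a carbonic anhydrase of red cells, fell by 2.81 (SE 0.13), with probes from -4.08 to -2.81. The globin gene Hbb-b1 fell by 1.82 (SE 0.11), and the erythroid transcription factor gene Klf1 fell by 1.69 (SE 0.12). Globin genes are near-copies of each other, and their probes may not be told apart. Epor, the erythropoietin receptor, was at 0.45, 0.40 and 0.44 on the Ctrl arrays and 0.38, 0.24 and 0.22 on the 3 dpi arrays and did not pass. The gene called higher, the ankyrin gene Ank1, was at 1.05 (SE 0.13) on its brightest probe and flipped to -2.13 in the deposited table and to -0.76 as the mean of its probes, and 0 genes of the list were called higher under the 5 other scalings. The motif AGATAA was in the promoters of 6 of the 16 genes of the list called lower that have one (37.5%), Rhd and Kel among them. Its share was 10.2% of the genes tested and 14.6% of all genes called lower. The other motif, TGAGTCA, was in 2 of the same 16 (12.5%), against 5.27% of the genes tested. Together these markers summed to 511, 443 and 458 on the Ctrl arrays and 286, 280 and 271 on the 3 dpi arrays, with Hemgn the brightest, at 0.19 (SE 0.09) here and -1.90 in the deposited table.

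Of 35 markers of stem and progenitor cells, 1 was called higher and 12 lower (median -0.53). Mycn, a transcription factor of dividing progenitors, was at 0.71, 0.79 and 0.73 on the Ctrl arrays and -1.57, -1.56 and -1.80 on the 3 dpi arrays. Cd34, a surface sialomucin, was at 4.82, 4.86 and 4.80 on the Ctrl arrays and 3.42, 3.30 and 3.21 on the 3 dpi arrays. Kit was at 3.40, 3.12 and 3.13 on the Ctrl arrays and 1.86, 1.94 and 1.87 on the 3 dpi arrays. The 3 dpi arrays were the lower ones for all 3 genes, and the probes of Kit ranged from -2.31 to -1.32. Sox4 fell by 2.04 (SE 0.09). Procr, the endothelial protein C receptor of stem cells, was at -0.43 (SE 0.06), less than 2-fold lower, and Ndn, an imprinted gene, rose by 1.21 (SE 0.13). The list summed to 261, 245 and 239 on the Ctrl arrays and 169, 165 and 158 on the 3 dpi arrays, with Myb the brightest.

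Of 42 targets of p53, 11 were called higher and 0 lower (median 0.55), and 4 were lower at an unadjusted p under 0.05, Btg2, Ddb2, Fdxr and Trp53i11. Phlda3, an inhibitor of Akt, was at -1.77, -1.71 and -1.73 on the Ctrl arrays and 2.65, 2.44 and 2.38 on the 3 dpi arrays. Zmat3, an RNA-binding target of p53, was at -2.74, -2.85 and -2.88 on the Ctrl arrays and 0.64, 0.92 and 0.63 on the 3 dpi arrays. Cdkn1a, the cell cycle inhibitor p21, was at 0.86, 0.61 and 0.58 on the Ctrl arrays and 3.35, 3.09 and 3.05 on the 3 dpi arrays. The groups were apart for each, by 4.23 (SE 0.08) for Phlda3, 3.55 (SE 0.09) for Zmat3 and 2.48 (SE 0.11) for Cdkn1a, and Gdf15, a secreted stress factor, rose by 2.65 (SE 0.07). Mdm2, which degrades p53, was at 4.09, 3.99 and 3.96 on the Ctrl arrays and 4.65, 4.57 and 4.54 on the 3 dpi arrays, at 0.57 (SE 0.06) less than 2-fold. The list median at 1 dpi was 1.33, against 0.25 over all genes. At 3 dpi 12 of the 42 genes were called lower than at 1 dpi, against 4.83% of all genes. Phlda3 (difference -1.11), Cdkn1a (-1.39) and Mdm2 (-1.10) were among the 12.

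The lists of the cell cycle held 0 called genes in limma's fit. Of 58 replication genes, 64 mitosis genes and 60 genes of damage signalling and repair, 0 changed 2-fold, and the medians were -0.01, 0.04 and -0.17. At an unadjusted p under 0.05, replication genes lay 9 above and 9 below 0, mitosis genes 15 above and 3 below 0 and repair genes 4 above and 29 below 0. The 3 mitosis genes below were Ckap2l, Knl1 and Kifc1, and the 4 repair genes above were Dclre1c, Fancd2, Xrcc4 and Trp53bp1. Called lower in the deposited table were Rnaseh2a and Pola2 of replication, Cdkn3 and Kif23 of mitosis, and Xpa, Fancc, Msh3 and Prkdc of repair. Mki67, the antigen of cycling cells, was at 5.04, 5.12 and 5.05 on the Ctrl arrays and 5.04, 5.04 and 5.03 on the 3 dpi arrays. Pcna, the replication clamp, was at 5.40, 5.27 and 5.26 on the Ctrl arrays and 5.22, 5.33 and 5.27 on the 3 dpi arrays. The groups overlapped for both. Atm, the damage kinase, was at -0.56 (SE 0.07) and Brca1 at -0.12 (SE 0.09).

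Of 46 replication-dependent histone genes, 0 were called higher and 5 lower (median -0.46). Hist1h2bg was at 0.84, 0.50 and 0.47 on the Ctrl arrays and -0.69, -0.63 and -0.64 on the 3 dpi arrays. H3c1 was at -0.66, -0.45 and -0.58 on the Ctrl arrays and -1.59, -1.81 and -1.82 on the 3 dpi arrays. Each was lower on all 3 dpi arrays. Hist2h2ac fell by 1.75 (SE 0.17). Hist1h2ai fell by 1.13 (SE 0.11), and H2ac7 fell by 1.03 (SE 0.08). With normexp background correction just Hist1h2bg and H3c1 of the list were called lower. Histone genes of one class are near-copies, and their probes may not separate them.

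Interferon response genes were compared with both Ctrl and 1 dpi. Of 59, 11 were called higher and 0 lower, and 3 were lower at an unadjusted p under 0.05 (Irf9, Ifi27 and Trim21). The median was 0.41, against 1.26 at 1 dpi, where that of all genes was 0.25. At 3 dpi 18 of the 59 were called lower than at 1 dpi, against 4.83% of all genes. Ifit3, an interferon-induced antiviral protein, was at 0.14, 0.29 and 0.19 on the Ctrl arrays and 2.51, 2.34 and 2.31 on the 3 dpi arrays. Cxcl10, a chemokine for T cells, was at 0.41, 0.48 and 0.45 on the Ctrl arrays and 1.91, 2.04 and 2.0 on the 3 dpi arrays. Both lay above every Ctrl array at 3 dpi, by 2.18 (SE 0.07) for Ifit3 and 1.54 (SE 0.06) for Cxcl10, and were called lower than at 1 dpi, with log2 differences of -1.64 for Ifit3 and -1.66 for Cxcl10. Phf11d rose by 1.67 (SE 0.08). Irf7, the factor that amplifies interferon, rose by 1.25 (SE 0.08), and Isg15, a ubiquitin-like modifier, was at 0.77 (SE 0.06).

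Of 21 interferon-inducible GTPases, 6 were called higher and 0 lower (median 0.35, from 0.23 to 0.39 over the scalings). Iigp1 was at -0.39, -0.54 and -0.45 on the Ctrl arrays and 1.85, 1.80 and 1.83 on the 3 dpi arrays, with probes from 0.60 to 2.28. Gbp6 was at -4.88, -4.85 and -4.95 on the Ctrl arrays and -2.95, -2.60 and -2.61 on the 3 dpi arrays. The 3 dpi arrays of both lay above all Ctrl arrays. Gbp11 rose by 1.59 (SE 0.13) and was called higher than at 1 dpi, by 1.23. Gbp2, at 0.94 (SE 0.07) less than 2-fold above Ctrl, was called lower than at 1 dpi, with a difference of -1.87.

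Of 50 cytokine genes, 14 were called higher and 3 lower (median 0.36, from 0.16 to 0.36 over the scalings, or 0.18 without Ctrl replicate 1). With normexp and quantile normalization 9 were called higher and just Il12a lower. Il6 was at 2.51, 2.49 and 2.47 on the Ctrl arrays and 4.17, 4.38 and 4.28 on the 3 dpi arrays. Il10, which restrains inflammation, was at -4.83, -4.69 and -4.68 on the Ctrl arrays and -2.29, -2.27 and -2.19 on the 3 dpi arrays. Their 3 dpi arrays were all higher. Ifng, of NK and T cells, rose by 2.21 (SE 0.09) and Il34, a ligand of the Csf1r receptor, by 2.25 (SE 0.25), whereas Tnf was at 0.49 (SE 0.06) and Il1b at 0.95 (SE 0.06). The genes called lower were Il33 (-2.63, well above background on 1 of 3 arrays at 3 dpi), Il12a (-1.27) and Tnfsf13b (-1.06), which encodes BAFF.

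Of 26 genes of MHC class I presentation 0 were called, and at an unadjusted p under 0.05 they lay 9 above and 2 below 0, the latter being Erap1 and Tap2. Erap1 was called lower in the deposited table. The light chain gene B2m was at 0.16 (SE 0.07). Of 17 genes of class II presentation, 3 were called higher and 2 lower. Those called higher process antigens. Lgmn, a protease, was at 2.10, 2.03 and 1.99 on the Ctrl arrays and 4.87, 4.76 and 4.73 on the 3 dpi arrays, all higher at 3 dpi. The protease gene Ctss rose by 1.73 (SE 0.06) and the reductase gene Ifi30 by 1.33 (SE 0.06). All 3 are also lysosomal enzymes of macrophages. H2-DMb2, of the molecule that loads peptides, fell by 1.49 (SE 0.11). H2-Ob, of its inhibitor, fell by 1.02 (SE 0.06), a call lost after quantile normalization, with normexp, in the deposited table and without Ctrl replicate 1. The invariant chain gene Cd74 was at -0.21 (SE 0.08).

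Housekeeping lists held 0 called genes. Of 79 ribosomal protein genes (median -0.02), 74 of the respiratory chain (0.11), 37 of the proteasome (0.22), 36 of cholesterol and fatty acid synthesis (-0.10), 36 of the unfolded protein response (0.22) and 44 of autophagy (-0.07), 0 were called by limma with at least a 2-fold change. In the deposited table Rps24, Rps29, Ndufv2, Ndufa7, Fads2 and Map1lc3b of these were called lower. At an unadjusted p under 0.05, proteasome genes lay 26 above and 0 below 0, genes of the respiratory chain 27 above and 1 below 0 (the gene below being Atp5f1) and ribosomal protein genes 0 above and 9 below 0. In the same way, genes of cholesterol and fatty acid synthesis lay 2 above and 10 below 0 (Fdps and Acaca above), those of autophagy 7 above and 12 below 0, and those of the unfolded protein response 18 above and 5 below 0 (below were Eif2ak3, Creb3l2, Ddit3, Ern1 and Hyou1). Together with replication, mitosis, repair and MHC class I these are 10 lists with 509 genes, of which 195 had an unadjusted p under 0.05 and 0 changed 2-fold. Of all 29410 genes, at least 9400 had an unadjusted p under 0.05, so the 195 are not read as a trait of these lists. Rpl3, of the large ribosomal subunit, was at 6.57, 6.74 and 6.74 on the Ctrl arrays and 6.76, 6.68 and 6.71 on the 3 dpi arrays. Hspa5, the chaperone BiP of the endoplasmic reticulum, was at 5.98, 6.15 and 6.13 on the Ctrl arrays and 6.34, 6.20 and 6.23 on the 3 dpi arrays. The groups overlapped for Rpl3 and did not for Hspa5, which at 0.17 (SE 0.07) did not pass the test. The autophagy receptor gene Sqstm1 was at 0.40 (SE 0.09) and Fasn, the fatty acid synthase, at 0.01 (SE 0.08).

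Of 40 antioxidant genes, 9 were called higher and 0 lower (median 0.19). Gpx8, a peroxidase of the endoplasmic reticulum, was at -3.30, -3.30 and -3.25 on the Ctrl arrays and -0.03, -0.05 and 0.10 on the 3 dpi arrays. Gstt1, a glutathione transferase, was at -1.61, -1.95 and -1.79 on the Ctrl arrays and 1.39, 1.29 and 1.34 on the 3 dpi arrays. All 3 dpi arrays were high. Gpx3, which is secreted, rose by 2.37 (SE 0.10) and Gpx7 by 1.38 (SE 0.11). Hmox1, which degrades haem, was at 3.65, 3.61 and 3.45 on the Ctrl arrays and 4.25, 5.24 and 5.16 on the 3 dpi arrays, or 1.31 (SE 0.25), with 3 dpi replicate 1 the lowest of its group. Gpx4, the lipid peroxidase, was at 0.05 (SE 0.06).

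The plot of all lists shows each tested gene. Scaling to the array median lowers every value by the same 0.13, and this took below 0 the medians of 6 of 45 lists that lay nearer than that above 0, those of the proplatelet cytoskeleton, mitosis, the respiratory chain, dendritic cells, neutrophil granules, and basophils, mast cells and eosinophils. The dendritic, neutrophil and respiratory medians were also below 0 in the deposited table, and the proplatelet median after quantile normalization. No other list median changed sign over the 6 scalings. Without Ctrl replicate 1 the medians of the platelet agonist, granule cargo and replication lists lay just above 0 in place of just below.

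**Figure D4:**
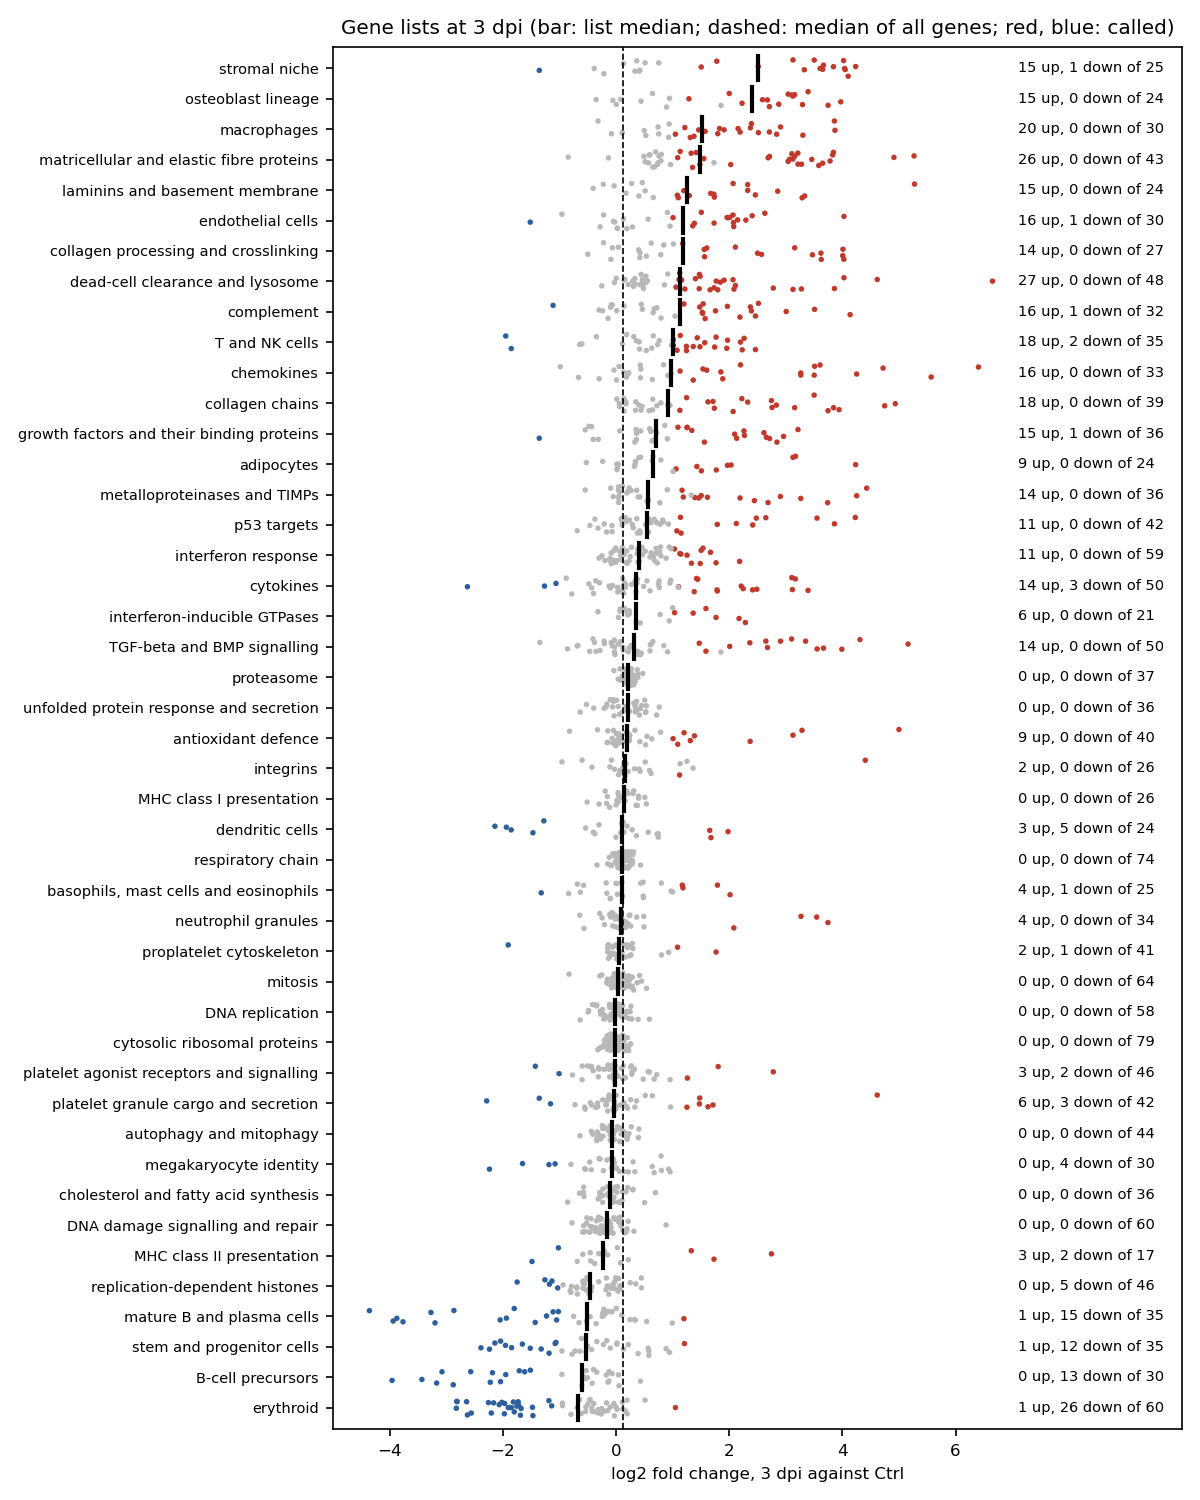
Log2 fold change at 3 dpi against Ctrl (x axis) of each tested gene (points) on 45 lists (ordered by median from top to bottom), with the list median as a black bar, the median of all genes as a dashed line and the genes called higher in red and lower in blue. The stromal, osteoblast and macrophage lists have the highest medians here, up to 2.51, the erythroid, B-cell precursor, stem and progenitor, and mature B lists the lowest, down to -0.67, and ribosomal, respiratory, replication and mitosis genes hold no called gene in this scaling.

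Some list genes were well above background on 0 Ctrl arrays, and only a bound can be given, with the dim group set to the lowest signal well above background on each array. These bounds hold for the background subtraction of the scanner files, and normexp, which adds an offset of 50 to each intensity, gave smaller values for all 5 genes named here. Chosen after their values were seen, these include Cxcl13, a B-cell chemokine that stromal cells secrete, at least 4.21 higher at 3 dpi on the log2 scale and 2.33 with normexp. The laminin chain gene Lama1 was at least 3.29 higher (1.60 with normexp). The death receptor gene Eda2r, a p53 target, was at least 3.02 higher (1.36). For the protease gene Adamts15 the bound was 2.66 (1.14), and for Gas1, a marker of stromal cells, 2.46 (0.97, no longer called). In all 5 the gene was well above background on every 3 dpi array.

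Fold changes of single genes depended on the background correction and the probe. With normexp, 45 of the named genes moved by over 1.5-fold, all toward 0, and 18 calls were lost. Those lost were Ank1, Fscn1, Gas1, Gpx7, Jam3, Mcpt4, Ndn and Prdm1 among the higher, and Cr2, H2-DMb2, H2-Ob, H2ac7, Hist1h2ai, Hist2h2ac, Il33, Klk1, Rag1 and Tbxa2r among the lower. Snai2 was at 2.92 and Lox at 2.68 there. With the mean of all kept probes of a gene in place of the brightest, 33 of the named genes moved by over 1.5-fold, 24 of them toward 0, and the calls of Ank1, Csf1r, Nbea and Tpm1 were lost. Of the named genes, 36 moved by over 1.5-fold in the deposited table, some of them named for that reason. That source had Cdkn1a at 3.97, Kit at -2.30 and Cr2 at -3.52, each farther from 0 in the same direction. B2m was at -0.99 there and Rpl3 at -0.70, neither called.

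Whether the later state differed from the earlier one was tested in the same fit. Between 3 and 1 dpi 8.79% of all genes were called. Of the 2053 genes called higher than Ctrl at 3 dpi, 694 were also higher than at 1 dpi, 81 were lower and 1278 were not called, and of the 534 called lower, 27 were higher than at 1 dpi, 92 lower and 415 not called. Among the lists, 14 of 30 macrophage, 11 of 24 osteoblast and 10 of 25 stromal markers were higher at 3 than at 1 dpi, and 0 of each were lower. Erythroid genes split, with 10 higher and 8 lower. Ahsp was 4.99 and Rhd 3.70 above its 1 dpi level on the log2 scale, and Hbb-b1 fell by 2.90 against 1 dpi. Fn1 was 2.0 and Adipoq 3.48 above 1 dpi.

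The p-values rest on 3 arrays in each group, and an exact two-sided permutation test of 3 against 3 cannot give a p under 0.10. For Ctrl replicate 1, alone on its slide, an effect of the slide and one of the sample cannot be told apart.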

How the data were processed

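Per the file headers, the intensity of each spot was background-subtracted and detrended with Agilent Feature Extraction 10.7.1.1, without scaling between arrays. The authors' log2 table, as deposited, matches quantile-normalized intensity of 1 probe per gene name; how it was made is not stated. Here, log2 intensity was scaled to each array's 75th percentile, probes were named from RefSeq tables (GRCm38.p6), probes well above background on 3 of 3 arrays in 1 or more groups entered, and the brightest probe stood for each gene. A 3-group fit used limma 3.58.1 in R 4.3.3, with a Benjamini-Hochberg adjusted p under 0.05 and at least a 2-fold change. Genes named are from the 12 largest rises and 12 largest falls, up to 4 called genes of each of 45 lists and anchor genes of the lists; the other genes named were chosen after their values were seen. Members and lists were chosen with earlier results of these data known. Alternatives tried were other scalings, background corrections, filters, probe summaries, call rules, the methods' t-test, blocks, and leaving out each array.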

Additional observations from a re-analysis of the deposited data

Results flagged for a closer look

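The genes below were called between both times after irradiation in limma's test of 3 dpi against 1 dpi, and each value is that log2 difference. Higher at 3 dpi among matrix genes were Ogn by 2.73, Lum by 2.35, Efemp1 by 2.23, Col3a1 by 2.02 and Fn1 by 2.0. Further matrix genes were higher too, Nid2 by 1.57, Pxdn by 1.37, Col6a1 by 1.31, Loxl1 by 1.18 and Fap by 1.68. Of the proteases, higher values were found for Mmp13 by 2.10 and Adamts9 by 1.18, and of the signalling proteins and integrins for Grem1 by 2.14, Bmp5 by 1.56, Fstl1 by 1.55, Igf1 by 1.84, Itga11 by 1.39 and Snai2 by 1.24. Stromal and bone markers were higher at the later time, Adipoq by 3.48, Ebf3 by 1.70, Esm1 by 1.50 and Islr by 1.44, and so were Bglap by 1.21, Bglap2 by 1.18, Fabp4 by 1.44 and Car3 by 1.83.

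Macrophage and complement genes were higher at 3 dpi, Folr2 by 1.75, Trem2 by 1.09, Maf by 1.48, C1qa by 1.98 and Serping1 by 1.44, as were Clec10a by 1.93, Stab2 by 1.53 and Ifi30 by 1.20. The chemokines and cytokines called higher were Cxcl13 by 2.17, Ccl8 by 2.12, Cxcl14 by 1.01 and Il34 by 1.40. Lymphoid genes called higher were Klrd1 by 1.78, Txk by 1.18, Il2rb by 1.09 and Gzma by 1.03, and among B-lineage genes Lef1 by 1.31, Igll1 by 1.26, Bach2 by 1.24 and Jchain by 1.11. Erythroid genes with higher values were Ahsp by 4.99, Rhd by 3.70 and Epor by 1.13. Others were higher as well, Gstt1 by 2.48, Gpx8 by 1.56, P2ry12 by 1.60, Nbea by 1.04 and Gbp11 by 1.23.

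Lower at 3 than at 1 dpi were the p53 targets Cdkn1a (-1.39), Eda2r (-1.38), Phlda3 (-1.11), Btg2 (-1.41) and Mdm2 (-1.10) and the interferon-induced genes Gbp2 (-1.87), Cxcl10 (-1.66), Ifit3 (-1.64) and Isg15 (-1.57). Of blood cell regulators and histones, lower values were found for Meis1 (-1.04), Mycn (-1.02) and Cd34 (-1.03), and for H3c1 (-1.03), Hist1h2ai (-1.14) and Hist2h2ac (-1.54). Of erythroid and platelet genes, lower values were found for Hbb-b1 (-2.90), Hemgn (-1.26), Slc35d3 (-1.40) and Tbxa2r (-1.08). Lower among matrix regulators were Mmp2 (-1.15) and Timp1 (-1.16), and lower among integrins was Itga1 (-3.30).

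Genes dim at 1 or both of these times passed the same test, and their values are differences of signals near background. Rag1, at -1.01, was well above background on 0 arrays at either time, so no difference was measured. Kel (2.73) and Adamts15 (2.78) were so on 0 arrays at 1 dpi, and Gas1 (1.71) on 1.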

How the results depend on the processing

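The number of genes called at 3 dpi against Ctrl, 2587 (2053 higher and 534 lower), changed with background correction and with the call rule. With normexp and the 75th percentile 1291 were called (1028 higher, 263 lower), and with normexp and quantile normalization 1147 (913 and 234). The deposited log2 table gave 860 lower, and the requirement of a signal well above background on all 6 arrays gave 1335 higher from fewer genes tested. Without a minimum fold change 9400 were called (4947 and 4453), and with treat 1142 (961 and 181). Of genes called at 3 dpi against 1 dpi there were 1603 with normexp and the 75th percentile, 1088 with normexp and quantile normalization, 4484 without a filter on dim probes, 13104 without a minimum fold change and 520 with treat. As for median log2 fold change of all genes, it was -0.012 with arrays scaled to their medians and -0.033 in the deposited table. The other alternatives kept these counts within 1.5 times. Leaving out each of the 9 arrays in turn gave 2345 to 2760 calls (1811 to 2238 higher, 522 to 541 lower), 2260 to 2810 against 1 dpi and a median of all genes of 0.01 to 0.15. The methods' t-test gave 2550 genes at the raw p and 2205 after Benjamini-Hochberg. Replicate numbers were tried as a block, which gave 2497 calls (1970 and 527); same-numbered Ctrl and 3 dpi arrays correlated from -0.083 to 0.091 after group means were removed, and 3 of 6 arrays correlated best with their own number, so the numbers are read as names only. A slide as fixed block equals leaving out Ctrl replicate 1 and gave 2366, and as random block 2444.

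Of the values of named genes over these settings, 6304 were unchanged in direction and in call, 112 were in the same direction and no longer called, 79 became called and 13 reversed, with a call on 1 side or both; the others changed sign without being called on either side. All but one of the reversed values were in the deposited table, Ank1 (-2.13), Cdkn3 (-1.56), Hemgn (-1.90), Itgb1 (-1.07), Kif23 (-1.15), Map1lc3b (-1.16), Myl6 (1.21), Ndufa7 (-1.20), Ndufv2 (-1.49), Rps24 (-2.13), Rps29 (-1.0) and Sptbn1 (1.16), and the other was Ank1 as the mean of all probes (-0.76); the cause was not tested. Genes near background in 1 group are limited by their signal, and with normexp their fold changes were smaller. The number of arrays limits the precision.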

Other observations

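The list genes at 1 dpi, on arrays that share the fit and belong to neither group of the main comparison, are given here as medians. The median log2 fold change at 1 dpi against Ctrl was -0.53 for the erythroid list, -0.78 for B-cell precursors, 0.44 for the macrophage list and 1.49 for the stromal list. Over all genes it was 0.25. At 3 dpi against 1 dpi the median difference was 1.0 for the macrophage list and -0.55 for the p53 targets. It was -0.51 for the ribosomal protein genes and -0.11 over all genes. The 1 dpi arrays were dimmer. Before scaling, the 75th percentile of log2 intensity was 9.31, 9.42 and 9.40 at 1 dpi and 10.34, 10.53 and 10.51 at 3 dpi. Its part in these differences was not tested.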
